A study of Mus musculus with 3 samples.

Results

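The 35 replication and mitosis genes described here are genes whose products copy DNA or separate chromosomes. They were compared between otic placodal ectoderm that lacked Fgf3 and Fgf10 and ectoderm that kept a working copy of each. The members were chosen by name: 20 genes act in S phase, when DNA is replicated, and 15 act in mitosis. Every gene was found on the arrays, with 54 probes of 60 bases in all. Of these, 52 probes were well above background in at least one channel on all 3 arrays, 28 for the S phase genes and 24 for the mitosis genes, among 25508 such probes of 16844 genes in the whole series. The second probes of Mcm4 and Rrm1 missed that limit, so every gene kept at least 1 probe.

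The double null pools came from Fgf3-/-;Fgf10-/- mouse embryos, and the double heterozygote pools from Fgf3+/-;Fgf10+/- embryos. All embryos were at 4 to 8 somites and had received no treatment, and the labels name no other allele in either group. Each genotype gave 3 pools of 10 placodes, and each of 3 two-colour arrays carried 1 pool of each. A pool averages its embryos, and wild-type placodes were not among the samples used here. The double null was labelled with Cy5 and the double heterozygote with Cy3 on every array, so genotype and dye cannot be told apart. The values below are log2 ratios of double null over double heterozygote, or normalized log2 intensities of a channel, and levels of different probes are not set against each other.

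Cells prepare for S phase when cyclin E and Cdk2 release E2F transcription factors, which switch on genes for replication. Cdc6 and Cdt1 load the Mcm2 to Mcm7 helicase onto origins, and the polymerases then copy DNA with nucleotides made by ribonucleotide reductase and thymidylate synthase. Mitosis is driven by cyclin B and the Polo and Aurora kinases, and the spindle checkpoint holds the separation of chromosomes until each is attached. Transcripts of both groups are abundant in dividing tissue and scarce in resting tissue, so they are widely used to read how many cells of an embryonic epithelium are cycling.

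The targeted genes and markers of the tissue are described first. The Fgf3 probe had ratios of -0.69, -0.06 and -0.69 on arrays 1 to 3, and the Fgf10 probe 0.31, -0.11 and 0.23. Neither passed (limma adjusted p = 0.121 and 0.386), and the position of each probe within its mutated allele was not analysed here. Of 8 otic placode marker genes, 7 were kept, with 13 probes whose mean ratios were all below 0 and a median of -0.23. The missing one was Pax2, an early otic marker. Of the 13 otic probes, 2 passed as lower, against 0.29% of all probes. All 6 surface ectoderm genes were kept, with a median of -0.14, but 0.00027 on array 2. Markers of other tissues near the placode also differed from 0. The median was -0.21 for hindbrain, -0.23 for endoderm, 0.51 for endothelium and 0.14 for head mesoderm. Blood was represented by 2 of 5 genes, with Hbb-y, Gata1 and Alas2 not kept. A Hbb-bh1 probe for embryonic globin had levels of 10.4, 7.67 and 11.8 in the double null pools, against 9.01, 8.09 and 8.93 in the double heterozygote pools. The blood probes therefore had the opposite sign on array 2 (median -0.42) to that on arrays 1 and 3 (1.43 and 2.69). The part of these markers in the ratios below was not tested. In pools of tissue, fewer cells of a type and less RNA per cell cannot be told apart.

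Few replication and mitosis genes differed between the double null and the double heterozygote past the threshold. Of 52 member probes, 2 passed the threshold of 0.05 (limma, Benjamini-Hochberg adjustment over all 25508 probes), against a background of 1.51% of all probes in either direction. Both were higher in the double null, where the background was 1.22%: Mcm3, a subunit of the replicative helicase, and Pcna, the sliding clamp that holds polymerases on DNA. No member was lower, where the background was 0.29%. At an unadjusted p under 0.05 there were 12 member probes, against 20.2% of all probes. The member ratios ran from -0.26 to 0.49, with a median of -0.0034, and 25 of 52 (48.1%) were above 0. Over all kept probes the median was 0.01 and 54.0% were above 0.

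The intervals describe the spread between the 3 arrays under the normalization used here. They take in neither another normalization nor the dye, so they do not bound every difference that could have been missed. The 95% confidence interval of the ratio had a median half-width of 0.13, and for 51 of 52 member probes it lay within a 1.5-fold change in either direction. The exception was the brighter Mcm3 probe. For 43 of 52 probes the interval stayed within 0.3 of 0 on the log2 scale. Of the 52 probes, 11 were above 0 on all 3 arrays, against 24.6% of all probes, and 12 were below 0 on all 3, against 19.2%.

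**Figure D1:**
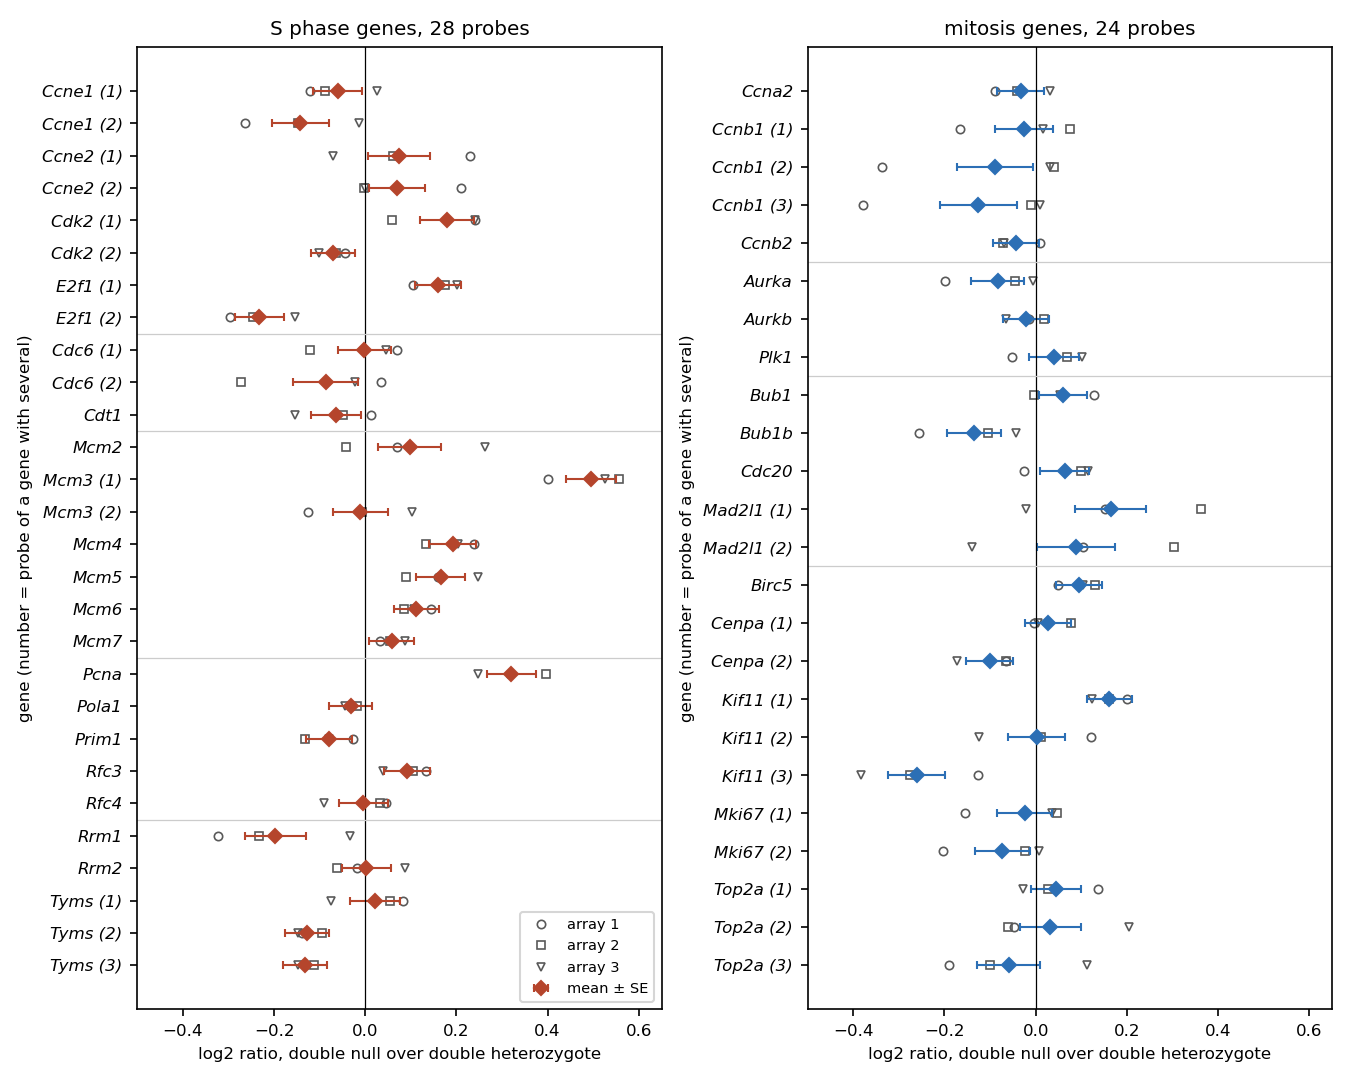
The log2 ratio of double null over double heterozygote is plotted for each of the 52 kept probes, by role, with S phase genes on the left and mitosis genes on the right. Open symbols are the 3 arrays and diamonds the mean with its moderated SE; a number in brackets orders the probes of a gene from the highest ratio down. Mcm3 (1) and Pcna stand to the right of the other probes, and most means lie within 0.2 of 0.

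Mcm3 had 2 of the 7 helicase probes, and they disagreed. The first, at chromosome 1 positions 20998636 to 20998695 of mm7, is the higher of the pair. The second lies at positions 21000880 to 21001396, a stretch of 517 bases, so its 60 bases join parts of the transcript that are separate in the genome. Their sequences are shown because the Mcm3 result depends on which is read. For the first probe 30 bases are printed, and the second is whole.
Mcm3 A_51_P324934, bases 1 to 30: aagctttctttgcgattagactagtatgta
Mcm3 A_52_P364776: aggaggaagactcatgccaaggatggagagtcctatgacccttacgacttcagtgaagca

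The first Mcm3 probe had levels of 16.37, 16.45 and 16.42 in the double null pools, against 15.97, 15.89 and 15.90 in the double heterozygote pools. All 3 double null pools were above all 3 double heterozygote pools. The share of all probes whose pools separate in this way was not counted, here or for the genes below. The ratio was 0.49 ± 0.05 (SE, n = 3), a fold of 1.41 with a 95% interval from 1.29 to 1.54 (limma adjusted p = 0.0114). Without array 2 or 3 the adjusted p was 0.0558 or 0.0972, and over 16 alternatives it ran from 2.2e-05 to 0.229. The lowest came from an alternative scaling, median centring, in which 19477 of 25508 probes passed. The second probe had levels of 13.51, 13.53 and 13.60 in the double null, against 13.63, 13.53 and 13.49 in the double heterozygote, and these overlapped. Its ratio was -0.01 ± 0.06 (adjusted p = 0.941). On each array the first probe exceeded the second by 0.53, 0.56 and 0.42. The first is also the brighter, and against other probes of like brightness the gap was smaller, with differences of 0.25 for the first and 0.03 for the second.

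The other Mcm subunits each had 1 kept probe, and none of them passed. The Mcm4 probe had ratios of 0.24, 0.13 and 0.20, with a mean of 0.19 ± 0.05 (SE, n = 3; limma adjusted p = 0.127). Mcm4 passed in 2 of 16 alternatives, an intensity trend in the prior and median centring. The means were 0.17 for Mcm5, 0.11 for Mcm6, 0.10 for Mcm2 and 0.06 for Mcm7. The helicase probes had a median of 0.11, and 6 of 7 were above 0. These are among the brightest probes of the array: 6 of the 7 had a mean log2 intensity over 15. Set against the 500 other probes nearest in brightness on the same array, the helicase median was 0.03, and Mcm4, Mcm6 and Mcm7 were below their neighbours, by differences of -0.04, -0.12 and -0.11.

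Pcna was the second member past the threshold. Its probe, at chromosome 2 positions 131990537 to 131990674 of mm7, was spotted 10 times on each array and also spans more of the genome (138 bases) than its own length.
Pcna A_51_P396351: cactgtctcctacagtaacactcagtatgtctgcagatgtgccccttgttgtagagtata

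The Pcna levels were 16.37, 16.38 and 16.39 in the double null pools, against 16.05, 15.98 and 16.14 in the double heterozygote pools, with no overlap. The ratio was 0.32 ± 0.05 (SE, n = 3), a fold of 1.25 with a 95% interval from 1.14 to 1.36 (limma adjusted p = 0.0484). Pcna did not pass when any 1 array was left out (adjusted p = 0.106, 0.165 and 0.149). Over 16 alternatives the adjusted p ran from 3.3e-05 to 0.97, the lowest again with median centring. The 10 spots agreed closely within an array, with SDs between 0.02 and 0.045, against array means of 0.32, 0.40 and 0.25. The spots are copies of one probe on one pair of pools, so they add precision to each array and no replicate of the genotype.

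The other fork genes were near 0. Rfc3 and Rfc4, subunits of the clamp loader that opens the Pcna ring, had ratios of 0.09 and -0.0044. Pola1 and Prim1, the polymerase and primase that start new strands, had ratios of -0.03 and -0.08. The Rfc4 ratio had no single sign over the arrays (0.05, 0.03 and -0.09).

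Genes for entry into S phase pointed in both directions, sometimes within a gene. E2f1, a founding member of the E2F family, had the clearest split, and its probes lie within about the same stretch of chromosome 2, at positions 154300864 to 154300923 and 154301126 to 154301185 of mm7. The first 30 bases of each are shown, since they identify which part of the E2f1 transcript was read.
E2f1 A_51_P120636, bases 1 to 30: ctttaatggagcgtttatttatttatcgag
E2f1 A_52_P587611, bases 1 to 30: cgggaatgaaggtgaacacatctgtatgtg

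The E2f1 probe A_51_P120636, spotted 10 times per array, had levels of 10.28, 10.20 and 10.32 in the double null, against 10.58, 10.44 and 10.47 in the double heterozygote. Every double null pool was below every double heterozygote pool. The ratio of -0.23 ± 0.05 (SE, n = 3) did not pass (limma adjusted p = 0.0964). The probe A_52_P587611 had levels of 11.62, 11.58 and 11.49 in the double null, against 11.52, 11.40 and 11.29 in the double heterozygote, and these overlapped. Its ratio was 0.16 ± 0.05 (adjusted p = 0.165). The first probe was lower than the second by 0.40, 0.42 and 0.36 on the 3 arrays. The 10 spots of the first had SDs of at most 0.036 within an array, and the second has 1 spot per array, so its spot noise was not measured.

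Cdk2, the kinase partner of cyclin E, was also divided, with means of 0.18 and -0.07. The Cdk2 probe with the higher ratio had 0.24, 0.06 and 0.24 on the arrays. Both Cdk2 probes were dim, with mean log2 intensities of 8.63 and 7.37. The lower differed from the higher by -0.29, -0.12 and -0.34 on the arrays, less evenly than for E2f1. Cyclin E itself was not divided: Ccne2 had 0.07 at both probes, and Ccne1 -0.06 and -0.14. The Ccne1 probe of lower ratio had -0.26, -0.15 and -0.01 (adjusted p = 0.266). The 8 probes for S phase entry had a median of 0.0044, with 4 above 0. The licensing genes Cdc6 and Cdt1 had means of -0.0024 and -0.09 for the Cdc6 probes and -0.06 for Cdt1.

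Of the nucleotide supply genes none passed, and Rrm1 had the lowest S phase ratio after E2f1. Rrm1, the large subunit of ribonucleotide reductase, had levels of 14.29, 14.43 and 14.46 in the double null pools, against 14.61, 14.67 and 14.49 in the double heterozygote pools. The groups did not overlap, but array 3 differed little, and the ratio was -0.20 ± 0.07 (SE, n = 3; limma adjusted p = 0.185). Rrm2, the small subunit, had 0.0019.

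Tyms, which encodes thymidylate synthase, had 3 kept probes, of which the brighter pair agreed closely. These overlap: 40 bases are shared, in capitals, with a single mismatch, A37C, counted from 1 at the 5′ end of A_52_P292651.
Tyms A_52_P292651: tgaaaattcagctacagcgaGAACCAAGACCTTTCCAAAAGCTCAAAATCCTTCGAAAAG
Tyms A_51_P398366: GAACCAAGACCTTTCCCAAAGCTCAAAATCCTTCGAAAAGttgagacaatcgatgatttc

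On the 3 arrays A_52_P292651 had ratios of -0.13, -0.11 and -0.15 and A_51_P398366 had -0.14, -0.10 and -0.15, so the pair never differed by more than 0.02. The means were -0.13 ± 0.05 for each (SE, n = 3; limma adjusted p = 0.206 and 0.218). Probes that share this much sequence are close to repeats of each other and not separate evidence. The third Tyms probe, A_51_P375761, was the dimmest of all 52, cleared background in the double heterozygote pools on only 2 arrays, and had 0.02. The 5 nucleotide supply probes had a median of -0.13, or -0.08 against probes of like brightness.

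**Figure D2:**
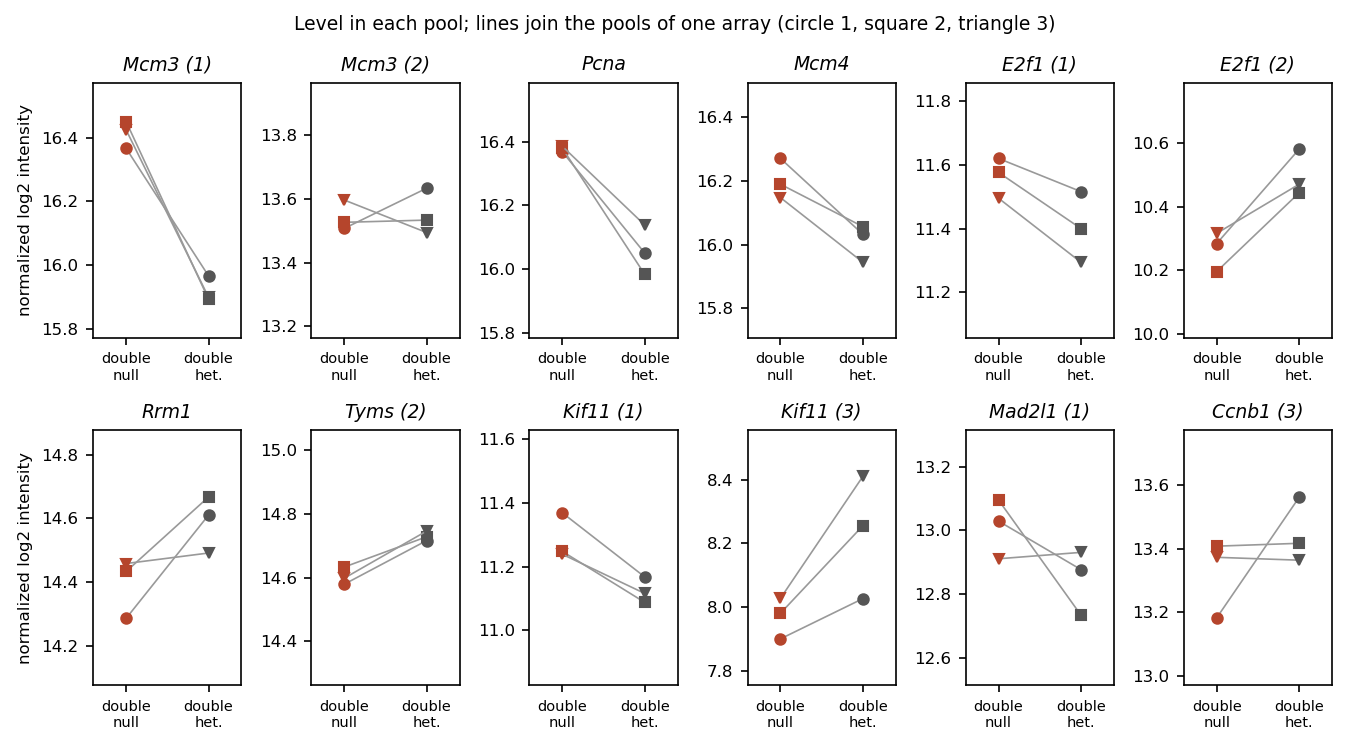
Normalized log2 intensity in each pool is shown for 12 probes, double null on the left and double heterozygote on the right of each panel; lines join the pools of an array, and every panel spans 0.8 log2 units. The Mcm3 (1) and Pcna lines all slope down to the right, those of E2f1 (2), Rrm1 and Tyms (2) slope up, and those of Mad2l1 (1) and Ccnb1 (3) differ between arrays.

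No mitosis gene passed in either direction. The spindle checkpoint genes had the highest values of the 4 mitosis roles. Mad2l1, a checkpoint protein that restrains the activator Cdc20, had levels of 13.03, 13.09 and 12.91 in the double null at its brighter probe, against 12.88, 12.73 and 12.93 in the double heterozygote. Its ratio was above 0 on arrays 1 and 2 only, with a mean of 0.16 ± 0.08 (SE, n = 3; limma adjusted p = 0.293). The other Mad2l1 probe followed it, with 0.10, 0.30 and -0.14. Cdc20 had 0.06, Bub1, a checkpoint kinase, 0.06, and its relative Bub1b -0.13, with -0.26, -0.10 and -0.04 on the arrays. The 5 checkpoint probes had a median of 0.06, with medians of 0.10, 0.10 and -0.02 on the arrays, and of 0.11 against probes of like brightness.

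Among genes of chromosomes and the spindle, Kif11, the motor that pushes spindle poles apart, split most. The Kif11 probe A_51_P481398, at chromosome 19 positions 37121948 to 37122007 of mm7, had 0.20, 0.16 and 0.12, with a mean of 0.16 ± 0.05 (SE, n = 3; limma adjusted p = 0.158). The probe A_52_P177802, at positions 37106330 to 37106389, had -0.13, -0.27 and -0.38, with a mean of -0.26 ± 0.06 (adjusted p = 0.106). The third probe, at 37087995 to 37088054, had 0.0025. The lowest was designed on the clone record AK050778 and the other two on the RefSeq record of Kif11, and only the highest had a mean intensity above 10. Birc5, or survivin, had 0.05, 0.13 and 0.10 on the arrays, with a mean of 0.09, and Cenpa, the centromeric histone, 0.03 and -0.10. Top2a, which untangles chromosomes, had 0.05, 0.03 and -0.06, and Mki67, the proliferation marker Ki-67, -0.02 and -0.07.

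The mitotic cyclins were lower on array 1 than on the others at most probes. Ccnb1, which activates Cdk1 to start mitosis, had 3 probes designed on the same record. Their ratios were -0.17, -0.34 and -0.38 on array 1, but 0.07, 0.04 and -0.01 on array 2 and 0.02, 0.03 and 0.01 on array 3. The probes thus agreed that 1 pair of pools stood apart from the other two, and the means of -0.03, -0.09 and -0.13 did not pass (lowest limma adjusted p = 0.444). Ccnb2 had -0.04 and Ccna2, used in both S phase and mitosis, -0.03. Of the mitotic kinases, Plk1 had 0.04, Aurkb -0.02 and Aurka -0.08. Bub1b was also lowest on array 1, as were Aurka at -0.20 and the Mki67 probes at -0.15 and -0.20. Other mitosis probes were highest on array 1, among them Bub1 at 0.13, a Kif11 probe at 0.20 and the dimmest Top2a probe at 0.14. The brighter Top2a probes had -0.19 and -0.05 on array 1. The mitosis medians on arrays 1 to 3 were -0.05, 0.02 and 0.0083.

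The S phase genes did not separate from the mitosis genes. Their medians were -0.00027 and -0.02, a difference of 0.02. On the 3 arrays the difference was 0.09, -0.03 and 0.0041, so its sign changed between arrays. The 3 arrays allow no exact two-sided p under 0.25, and no test of the medians was made. Against probes of like brightness the medians were 0.0022 for S phase and -0.02 for mitosis, with array differences of 0.10, -0.07 and -0.02. In the ratios themselves, only the helicase at 0.11 and nucleotide supply at -0.13, both within S phase, had medians beyond 0.1. Against probes of like brightness these medians were 0.03 and -0.08. The only role beyond 0.1 was then the spindle checkpoint at 0.11, within mitosis. Its medians on arrays 1 to 3 were 0.12, 0.05 and 0.0053. Within that role Cdc20 and Bub1b lay below their neighbours, at -0.08 and -0.09.

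The brightness of the members bears on both calls. Member probes had a median mean log2 intensity of 13.5, against 9.65 for the other kept probes. A mean intensity over 15 was reached by 13 of 52 member probes (25%) and by 2.92% of the other probes. At that level ratios ran high in the double null: 606 of the 744 other probes were above 0, 29.7% of all probes over 15 passed the threshold, and 29.3% passed as higher. Other probes had a median ratio of -0.03 at intensities of 14 to 15, 0.09 at 15 to 16, 0.43 at 16 to 17 and 0.75 above 17. The Mcm3 and Pcna probes, at 16.17 and 16.22, lie in the third of these ranges, in which 147 of 227 other probes passed. With median centring in place of loess the median of all kept probes moved to 0.33, and the S phase and mitosis medians stood 0.26 and 0.23 above it. In that scaling 47 of 52 member probes passed, and Rrm1 and the overlapping Tyms probes had ratios above 0.

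**Figure D3:**
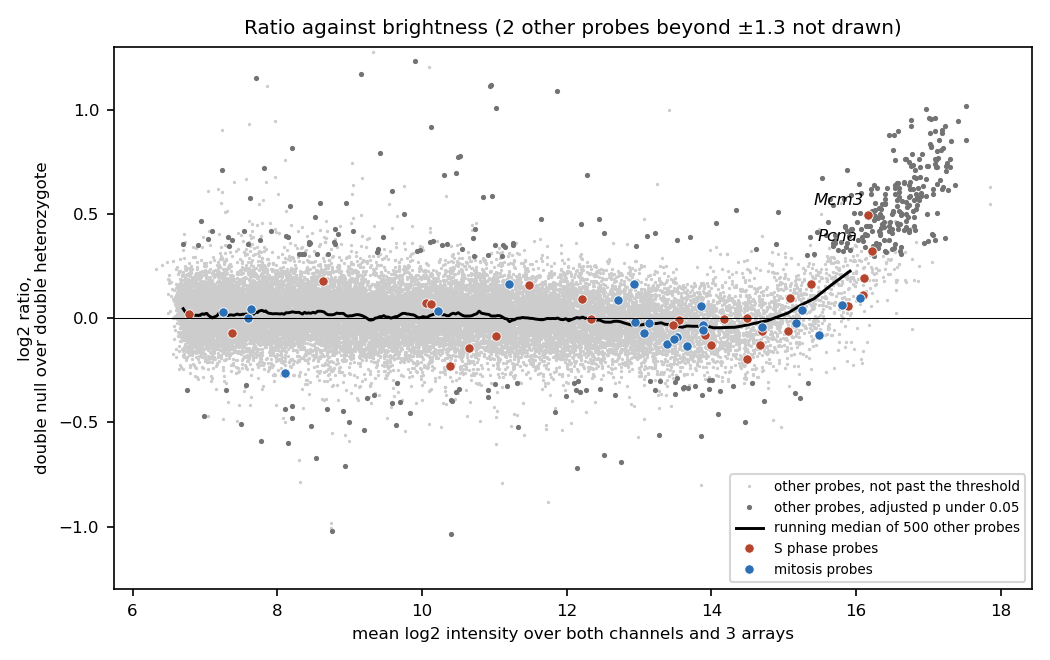
The log2 ratio of double null over double heterozygote is plotted against mean log2 intensity, with S phase probes in red, mitosis probes in blue and other kept probes in grey, darker where they passed the threshold. The black line is the running median of 500 other probes; it climbs above an intensity of 15, where 13 member probes lie, Mcm3 and Pcna among them.

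When each probe was set against the 500 other probes nearest in brightness, no member passed. The lowest limma adjusted p was 0.111, for Mcm3, and 12 of 52 members had an unadjusted p under 0.05, against 18.9% of all probes. On all 3 arrays 9 members were above their neighbours, against 21.9% of all probes, and 12 were below, against 20.7%. In that fit 0.482% of all probes passed. The Mcm3 probe was above its neighbours by 0.17, 0.28 and 0.29 on the arrays, a mean of 0.25 with a 95% interval from 0.12 to 0.37. Of its 500 neighbours, 92 had a higher ratio and 172 (34.4%) passed as higher. Pcna was above its neighbours by 0.07, with an interval from -0.05 to 0.19, and 191 of 500 had a higher ratio. So few probes are brighter that only 185 of the 500 neighbours of each lay above it, and with the 200 nearest probes the median beside Mcm3 was 0.28, against 0.23 with 500.

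The members varied about their neighbours as other probes did. Of 52 member probes, 31 (59.6%) lay between the quartiles of their window, and the median absolute difference was 0.0725 for members and 0.0727 for the other probes in these windows. The 13 members over an intensity of 15 had a median ratio of 0.09, against 0.19 for other probes over 15. The 39 members up to 15 had a median of -0.03. The largest differences from neighbours were -0.29 for the Kif11 clone probe, -0.25 for the E2f1 probe of 10 spots and 0.25 for the first Mcm3 probe.

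**Figure D4:**
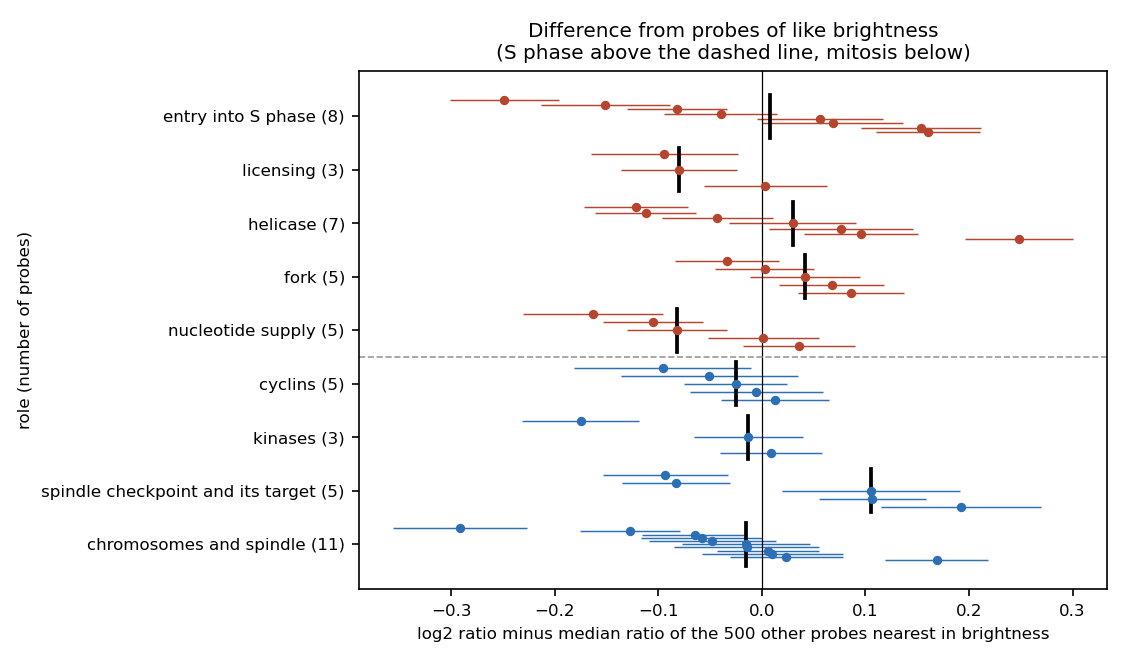
The difference of each member probe from the median of the 500 other probes nearest in brightness is plotted by role, S phase roles above the dashed line and mitosis roles below. Points are means over 3 arrays with their moderated SE, and black bars are the medians of each role, which run from -0.08 for nucleotide supply to 0.11 for the spindle checkpoint.

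Wider lists of the same processes gave like values. Of 54 other replication genes, all were kept, with 90 probes; 1 probe was higher, none was lower, 43 were above 0 and the median was -0.0012. The one that passed was a probe of Nasp, a histone chaperone, with ratios of 0.29, 0.39 and 0.38 and a mean of 0.35 ± 0.05 (SE, n = 3; limma adjusted p = 0.0291). It too was bright, at 16.5, and the second Nasp probe, at 11.8, had 0.04. The first did not pass without array 2 or without array 3. Of 55 other mitosis genes, with 91 probes, none passed in either direction, 43 were above 0 and the median was -0.0076. The nearest in that list was Cks2, a small partner of Cdk1, at 0.31 ± 0.06 (adjusted p = 0.0667).

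Promoters of the members were searched for short words known from cell cycle genes. RefSeq promoters (GRCm38.p6, 250 bases before to 50 after the start) were matched for 18 S phase and 13 mitosis genes, 19 and 13 promoters. No promoter was matched for Ccna2, Aurkb, Ccne2 and Mcm4. The E2F words searched on both strands were TTTCCCGC, TTTCGCGC, TTTGCCGC and TTTGGCGC. At least one was found in 9 of 19 S phase promoters (47.4%), in none of 13 mitosis promoters and in 2.3% of all 32851 promoters. The word TTTGAA, the core of the cell cycle homology region of mitotic genes, was found in 9 of 13 mitosis promoters (69.2%), in 1 of 19 S phase promoters (5.3%, Mcm2) and in 17.9% of all. CCAAT was found in 84.6% of the mitosis promoters, 68.4% of the S phase promoters and 37.4% of all. In Mcm5 and Mcm6 a pair of E2F words overlap each other.

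The promoters of Mcm3, the member with the highest ratio, and of Plk1 are printed as an example of each class. Capitals mark E2F words in Mcm3, 19 and 38 bases after the start, at chr1:20820263-20820562 on the minus strand. In Plk1 they mark TTTGAA, 30 bases after the start, at chr7:122159185-122159484 on the plus strand.
Mcm3: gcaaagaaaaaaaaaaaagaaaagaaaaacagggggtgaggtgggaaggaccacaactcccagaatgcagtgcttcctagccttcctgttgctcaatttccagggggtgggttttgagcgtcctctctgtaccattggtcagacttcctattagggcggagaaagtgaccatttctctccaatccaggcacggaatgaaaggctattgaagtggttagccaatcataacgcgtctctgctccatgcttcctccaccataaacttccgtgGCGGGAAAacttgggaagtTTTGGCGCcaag
Plk1: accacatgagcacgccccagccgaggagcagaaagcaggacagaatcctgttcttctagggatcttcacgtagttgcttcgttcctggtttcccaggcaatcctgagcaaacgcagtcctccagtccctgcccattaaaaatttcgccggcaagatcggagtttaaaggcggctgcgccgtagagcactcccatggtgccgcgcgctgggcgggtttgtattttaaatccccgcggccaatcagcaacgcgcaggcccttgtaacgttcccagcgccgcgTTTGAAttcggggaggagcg

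Ratios by word are given as a description. The 12 probes of S phase genes with an E2F word had a median ratio of 0.03 and the 13 probes of those without one -0.06, and both ranges crossed 0. The 15 probes of mitosis genes with TTTGAA had a median of -0.02, and the 7 probes of those without it 0.06. For CCAAT the medians were 0.07 with it and -0.06 without it among S phase probes (14 and 11 probes), and -0.03 with it and 0.09 without it among mitosis probes (19 and 3 probes). Against probes of like brightness the S phase medians were 0.0032 with an E2F word and -0.0338 without one. The mitosis medians were then -0.0253 with TTTGAA and -0.0052 without it. For CCAAT they were 0.0327 and -0.0798 in S phase, and -0.0253 and 0.1053 in mitosis. Pcna, the other member past the threshold, had none of the E2F words in its window. A word is a match of letters and not a measured binding site.

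Some members share a chromosome with a targeted gene. The Mki67 probes are the closest, 9.17 Mb from the Fgf3 probe on chromosome 7, and the Ccnb1 probes lie 18.1 Mb from the Fgf10 probe on chromosome 13. Neither gene passed. Mcm3, Pcna and E2f1 lie on other chromosomes than both.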

How the data were processed

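Total RNA of microdissected otic placodal ectoderm was amplified and labelled for 2 colours with Agilent's low-input kit, per the labels' protocols, and 3 arrays of 1 slide were read. Spot values were extracted with Agilent Feature Extraction 9.5.1.1, per the submitters' processing notes. The deposited scanner files hold mean and background intensity per channel, not yet normalized, and the scanner's processed intensity. A log10 ratio, red over green, is given too, per the file headers. Values of the authors' series table, as deposited, are log2 ratios and matched it within 2.01e-06 after conversion; the medians of its 3 columns were -0.012, -0.0082 and -0.0031. Positions are those of the files (mm7).

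Background was corrected here by normexp (offset 50) and ratios by loess within arrays (span 0.3, controls at weight 0). Between 143 and 175 of the 43379 spots per array that were not controls carried an outlier mark and were left out. Each probe's spots were averaged, and probes were kept if well above background in one channel on all 3 arrays (27284 to 29177 spots in Cy5, 26452 to 28258 in Cy3). At most 1 spot per array was saturated. For the channel levels, mean intensities were also made alike between arrays by quantile normalization (limma, Aquantile), with outlier spots kept. Mean ratios were tested per probe by an intercept-only model in limma 3.58.1 (lmFit, eBayes; R 4.3.3) with Benjamini-Hochberg adjustment over all kept probes and a threshold of 0.05, and the fit was tested on simulated data. The number of arrays limits the precision. Array pairs correlated with r between 0.36 and 0.41 across probes, which are not independent replicates. The arrays pair the pools by design, since each ratio is taken within an array.

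For brightness, the median ratio of the 500 nearest non-member probes on the same array was subtracted and the same fit run. The members, the other lists, the motif words and the alternatives were chosen with earlier results of these data known. All members may be named; the rule gave values on each array to members past the threshold and to the 3 highest and 3 lowest of each phase. Cks2 and Hbb-bh1, which are not members, and the further members given by array were chosen after their values were seen. Exon and UTR annotation of mm7 was not used here.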

Additional observations from a re-analysis of the deposited data

How the results depend on the processing

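The number of probes past the threshold depended on the processing, and so did the member calls. Over all probes 384 passed. The count was 199 with a normexp offset of 16, 13 with a loess span of 0.1 fitted on the kept probes only (2 choices changed together), 123 with centring on probes of like brightness and 993 with an intensity trend in the prior. It was 0 with the scanner's processed signals and 0 with the authors' deposited series table (4418 and 4469 at an unadjusted p under 0.05), and from 86 to 308 with a replicate left out. Of member probes, 2 passed, and none with processed signals, the series table, that narrower loess on kept probes or centring on like brightness. With the trend 3 passed, of Mcm3, Mcm4 and Pcna. The count stayed at 2 with both channels above background, the brightest probe of each gene or outlier spots kept. Only 1 passed with an offset of 16, with no filter on dim probes or with the probes of a gene averaged, and from 0 to 1 with a replicate left out: 1 without replicate 1 and 0 without replicate 2 or 3. The arrays pair the pools, and a separate-channel fit with no replicate block called 190 probes, of which 1 was a member and 0 belonged to the other replication and mitosis genes. Mcm3 passed in 9 of 16 alternatives, with ratios from 0.18 to 1.39 and limma adjusted p from 2.2e-05 to 0.229. Pcna passed in 6 of 16, with adjusted p from 3.3e-05 to 0.97, and its ratio was -0.0050 with the loess of span 0.1 on kept probes. For both genes the lowest adjusted p came with median centring, which is also counted among these passes. Of the other replication and mitosis probes 1 passed; 0 did with an offset of 16, processed signals, the loess of span 0.1 on kept probes, like-brightness centring, averaged probes or the series table, and 6 with the trend. Leaving out a replicate gave 0 to 1: Nasp without replicate 1, Pttg1 in its place without replicate 2, and 0 without replicate 3.

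Median centring in place of loess moved the median of all kept probes to 0.33, so that 19477 probes passed (17197 higher), 47 of them members and 167 of the other replication and mitosis genes. The S phase median became 0.59 and the mitosis median 0.56, which are 0.26 and 0.23 above that shift. The ratios that follow are of probes that were negative under loess, and the shift of 0.33 is not subtracted from them. S phase probes had E2f1 0.16, Cdt1 0.71, Prim1 0.56, Rfc4 0.67, Tyms 0.60 and 0.52 and Ccne1 0.67 and 0.27. Pola1 had 0.56, Rrm1 0.51, Cdc6 0.35 and 0.50 and the second Mcm3 probe 0.59. Mitosis probes had Aurka 0.74, Top2a 0.58, Mki67 0.76 and 0.49, Cenpa 0.50 and Ccnb1 0.51, 0.54 and 0.46. Aurkb had 0.53, Ccnb2 0.69, Ccna2 0.61 and Bub1b 0.48. The E2f1 probe and the lower Ccne1 probe were thus below the median of all kept probes. The Cdk2 probe of lower ratio and the Kif11 clone probe stayed below 0. The third Tyms probe, above 0 under loess, had -0.25. The cause of these shifts was not tested.

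The S phase median was -0.027 with processed signals and -0.027 with the series table, 0.064 with the brightest probe of each gene and 0.028 with probes averaged. The S phase median minus the mitosis median was 0.088 with the brightest probe, and otherwise lay between -0.02 and 0.06, the lowest without replicate 1. With a replicate left out the mitosis median ranged from -0.039 (without replicate 3) to 0.016 (without replicate 1). The medians against probes of like brightness moved by less than the spread between arrays in every alternative run.

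The design had 3 arrays, 1 dye orientation and pools as replicates. Under loess normalization, differences smaller than about 0.13 on the log2 scale were within the interval of a typical member probe. A probe's dye effect cannot be told apart from genotype, and the brightest probes have few others to be compared with.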
